A study of Mus musculus with 9 samples.

Results

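The comparison is of 3 libraries of K7M2 cells given (A/R) mouse platelets with 3 libraries of K7M2 cells given mouse platelets that carry no such mark, 6 of the 9 RNA sequencing libraries in the series. K7M2 is an established osteosarcoma line of mouse origin, labelled as wild type, and was kept in medium with fetal bovine serum. A further 3 libraries of untreated K7M2 cells serve for level, enter the shared fit and the filter, and give the calls against untreated cells that pick 1 set of genes below. It asks what the (A/R) mark changes in the cells' transcripts when platelets are given in both arms. The labels do not expand A/R, so it serves as a name. Every title states 24 h, whereas the treatment labels read 27, 28 and 29 h in the (A/R) arm and 24, 25 and 26 h in the other. As labelled, the hours and the (A/R) mark cannot be told apart. The labels do not state that replicates came from separate cultures, so a p-value reflects only how far these libraries scatter, and that scatter could be technical.

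Libraries held 45150198 to 61366030 deposited counts with (A/R) platelets, 46142184 to 51395827 with platelets and 37465049 to 54240592 without treatment, at about 4 counts per sequenced fragment. Levels below are the deposited FPKM values, fragments per kilobase of transcript scaled to the mapped fragments. The first principal component of all 9 libraries held 34.4% of the variance and placed the (A/R) platelet libraries at 34.7 to 35.0, the platelet libraries at -16.6 to -12.9 and the untreated libraries at -20.3 to -18.5. Platelet replicate 1 stood apart on the second component, at 26.6, and the named calls that were lost without it (those of Nupr1, Eif2ak1, Nfe2l2, Tgfb3, Dusp5 and Ppbp) are given with and without it below. The cells held RNA of the mesenchymal gene Vim at 539 to 578 FPKM with (A/R) platelets and 658 to 668 FPKM with platelets. Another mesenchymal marker, Twist1, was at 14.5 to 15.7 FPKM with (A/R) platelets and 29.1 to 32.3 FPKM with platelets. Not all such markers were present. Prrx1 was at 0.32 to 0.42 FPKM with (A/R) platelets and 0.28 to 0.45 FPKM with platelets and was not tested. Cdh11 had at most 6 counts in any library. RNA of the osteoblast regulator Runx2 was at 35.7 to 39.6 CPM with (A/R) platelets and 19.0 to 41.1 CPM with platelets (counts scaled by library total). The later bone markers Alpl and Ibsp had 0 counts in all 9 libraries and Sp7 and Bglap had at most 8. Other members of the osteoblast list, among them Runx2, Spp1, Col1a1 and Phex, were detected. Spp1 was at 284 to 291 FPKM with (A/R) platelets and 309 to 344 FPKM with platelets. Phex was at 1.25 to 1.56 FPKM with (A/R) platelets and 1.79 to 2.03 FPKM with platelets.

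Cells that run short of amino acids, meet misfolded protein or carry damaged mitochondria phosphorylate the translation factor eIF2, which slows most protein synthesis and favours translation of the transcription factor ATF4. ATF4 and its partners then raise genes for amino acid uptake and synthesis, tRNA charging and stress signalling, a programme known as the integrated stress response. In the endoplasmic reticulum (ER), misfolded protein can act through the sensors ATF6 and IRE1 as well, whose known targets are the ER chaperones.

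Calls rest on edgeR's quasi-likelihood test of the 11826 genes that reached 1 FPKM in 3 or more libraries, with p-values adjusted over all of them by Benjamini-Hochberg and a threshold of 0.05. With (A/R) platelets, 2024 genes were called higher and 2028 lower than with platelets, 17.1% of the tested genes in each direction and 34.3% in all. The balance between directions moved with the scaling, as 45.0% of calls were higher with upper-quartile scaling and 42.4% with limma on log2(FPKM + 1). Most changes were small, as 2798 of the 4052 called genes (69.1%) differed by less than 1.5-fold and the median size of a called change was 0.44 on the log2 scale. Changes of at least 2-fold were called in 138 genes that rose and 202 that fell, which is 1.17% and 1.71% of the tested genes and 2.88% in all. The (A/R) platelet and platelet libraries did not overlap in FPKM for 5778 genes, 48.9% of those tested, with 2516 higher and 3262 lower. The same fit called 38.8% of genes between (A/R) platelet and untreated libraries and 0.262% between platelet and untreated libraries, which share libraries with this comparison and are given for scale.

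**Figure D1:**
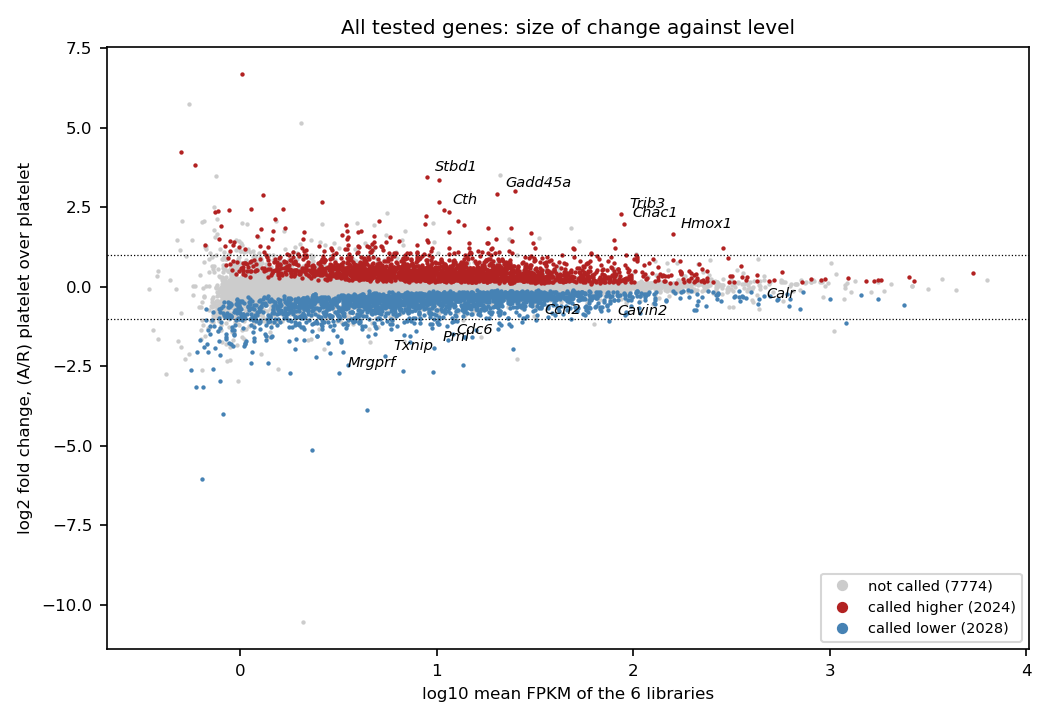
Each point is a tested gene, with the log10 of its mean FPKM over the 6 libraries on the horizontal axis and its fitted log2 fold change, (A/R) platelet over platelet, on the vertical axis; dotted lines mark 2-fold. The 2024 genes called higher (red) and the 2028 called lower (blue) lie mostly between the dotted lines, and 13 named genes are marked.

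The largest rise by the naming rule, which asks for a mean of at least 5 FPKM in the higher group, was that of Stbd1, which codes for a glycogen-binding protein and lies on the plus strand of chromosome 5 (GRCm38, 92603041 to 92606579). Its level was 17.6, 15.3 and 16.2 FPKM with (A/R) platelets, against 1.67, 1.49 and 1.41 FPKM with platelets. The 2 sets of libraries lay far apart, and the platelet level was close to the untreated mean of 1.61 FPKM. On the log2 scale the rise was 3.46 ± 0.16 (SE; adjusted p = 1.61e-06). Angptl6, a secreted angiopoietin-like protein, rose 10.3-fold, to 17.6 to 20.2 FPKM with (A/R) platelets, against 1.40 to 2.24 FPKM with platelets. Gadd45a, a stress-induced growth arrest gene on the minus strand of chromosome 6 (67035096 to 67037406), measured 36.4, 31.6 and 39.3 FPKM with (A/R) platelets, against 4.41, 5.50 and 4.47 FPKM with platelets (log2 fold change 2.93 ± 0.15, SE; adjusted p = 2.37e-06).

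Other large rises fell in several kinds of genes. Cth, which makes cysteine from cystathionine, rose 5.28-fold, and Slc6a9, a glycine transporter, rose 3.58-fold. Acot2, a mitochondrial acyl-CoA thioesterase, rose 5.07-fold, Soat2, which esterifies cholesterol, 3.96-fold, and Cyb5r1, a cytochrome b5 reductase, 3.58-fold. Gdf15, a stress-induced cytokine, was at 20.8, 21.8 and 19.1 FPKM with (A/R) platelets, against 5.33, 5.16 and 4.60 FPKM with platelets. All 3 values with (A/R) platelets exceeded every value with platelets, and the fold was 4.19. Gtpbp2, a GTPase that takes part in the rescue of stalled ribosomes, rose 4.65-fold, and Dennd4a, a regulator of Rab GTPases, 4.14-fold. The 15 largest rises also held Trib3 and Chac1, described with the stress genes, Brd3os (3.87-fold), a transcript on the strand opposite Brd3 whose reads cannot be told from those of Brd3 unless strand was used, and Cox6a2, a muscle-type subunit of cytochrome c oxidase (3.84-fold).

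**Figure D2:**
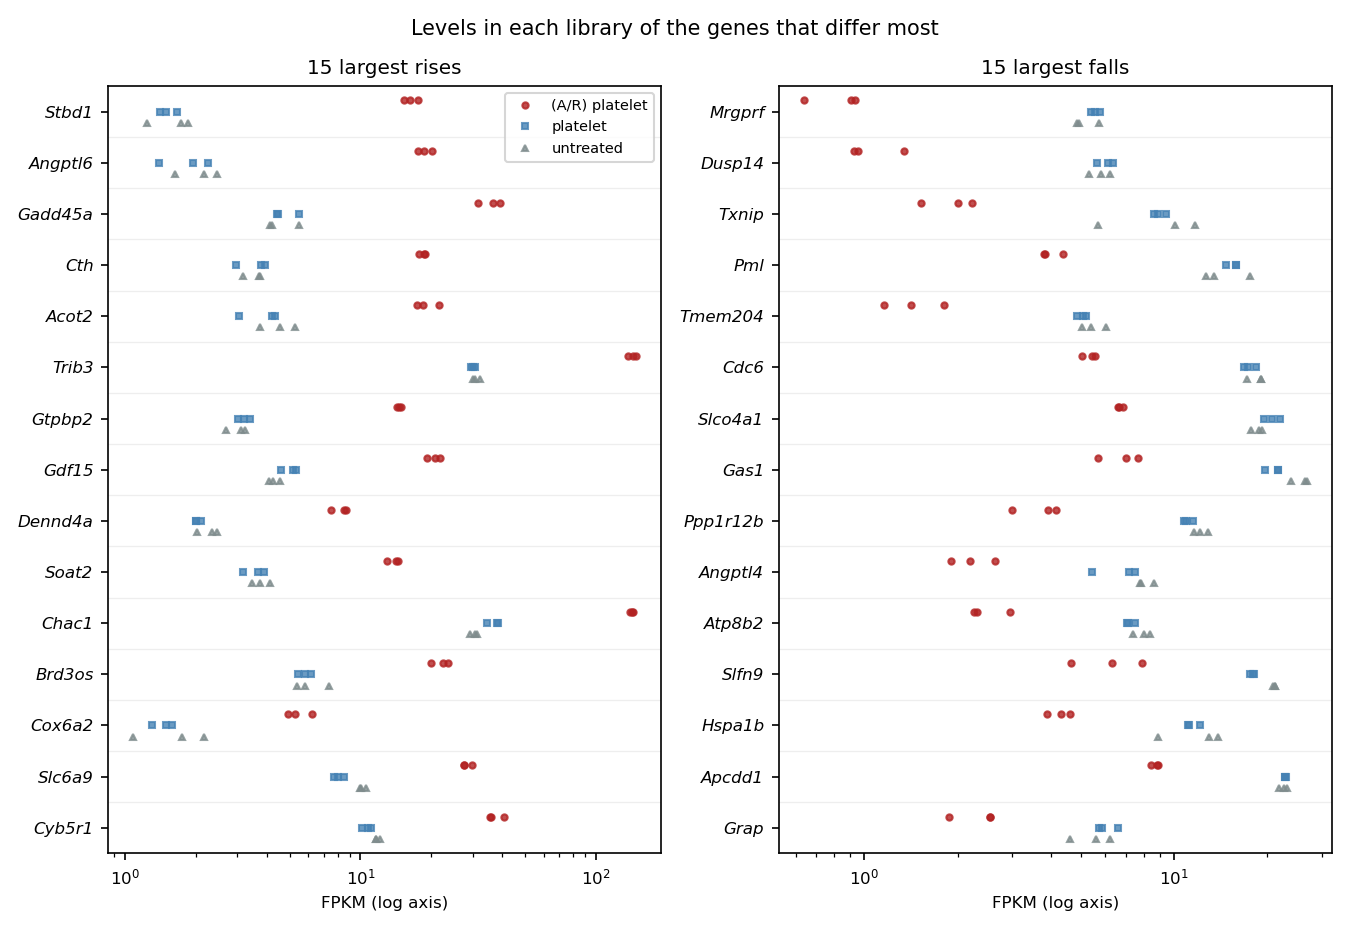
FPKM on a log axis of the 15 largest rises (left) and the 15 largest falls (right) chosen by the stated rule; each point is 1 library, and colours mark (A/R) platelet, platelet and untreated libraries. In each of the 30 genes the 3 (A/R) platelet libraries lie to one side of all platelet libraries, as the rule required. The untreated libraries, which enter the rule only through the shared fit and the filter, lie nearer to the platelet libraries.

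Of 22 tested members of a list of ATF4, its partners and their common targets, 16 were called higher and 3 lower. The share called was 86.4%, against 34.3% of all tested genes. The median log2 fold change was 0.78, against 0.00192 for all tested genes. Atf4 itself was at 220, 214 and 215 FPKM with (A/R) platelets, against 132, 127 and 125 FPKM with platelets, a rise of 0.79 ± 0.05 (SE; adjusted p = 4.52e-06). Its 3 values with (A/R) platelets were tightly grouped and well above those with platelets. Trib3, a pseudokinase induced by ATF4 and the gene with the smallest adjusted p of all (3.86e-08), was at 148, 137 and 144 FPKM with (A/R) platelets, against 30.7, 30.1 and 29.4 FPKM with platelets. Its fold was 4.88, on the minus strand of chromosome 2 (152337422 to 152344032). Chac1, an enzyme that breaks down glutathione, had 144, 143 and 139 FPKM with (A/R) platelets, against 38.3, 38.1 and 34.4 FPKM with platelets. The levels of Chac1 thus differed 3.95-fold, and the replicates of each treatment lay far closer together than that.

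Among partner transcription factors, Ddit3, also called CHOP, rose by 1.45 ± 0.08 on the log2 scale (SE), with 36.9, 33.6 and 34.6 FPKM with (A/R) platelets, against 12.8, 13.9 and 12.9 FPKM with platelets. A second Ensembl gene overlaps Ddit3 on chromosome 10, so the split of reads between the 2 is uncertain. Jdp2, a basic leucine zipper factor, rose by 1.19 ± 0.05. Genes of the list that were chosen after their values were seen include Ppp1r15a, which guides dephosphorylation of eIF2 (1.71), the stress gene Nupr1 (1.04), the C/EBP factor Cebpg (0.77) and Cdsn, which codes for an adhesion protein of skin and is at low level (2.89; 2.09 to 2.48 FPKM with (A/R) platelets, against 0.224 to 0.369 FPKM with platelets). The list also holds the 4 kinases that phosphorylate eIF2, and their transcripts did not follow the others. Eif2ak2, known as PKR, fell by 0.71, Eif2ak3, known as PERK, by 0.49 and Eif2ak1, known as HRI, by 0.25 on the log2 scale. Eif2ak4, known as GCN2, had a log2 fold change of 0.16 ± 0.08 (SE; adjusted p = 0.154). The call of Eif2ak1 was lost when no filter on level was applied and in 5 of the 6 fits that left out 1 treated library, where its log2 fold change was -0.26 to -0.22; it held without platelet replicate 3. The call of Nupr1 was lost without (A/R) platelet replicate 2 (0.93), platelet replicate 1 (0.93) or platelet replicate 2 (0.87). These 4 kinases were chosen after their values were seen.

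ATF4 pairs with C/EBP factors at a composite DNA element, written here as TGATGNAA and searched on both strands in RefSeq windows of 250 bases before to 50 after the start of each gene (GRCm38.p6). In such windows 5 of 20 genes of the ATF4 list with a sequence (25.0%) and 5 of 13 cytosolic tRNA synthetase genes (38.5%) held the element. It stood in 206 of the 8147 tested genes that have a window (2.53%) and in 4.51% of all genes with one. None of 10 serine and one-carbon enzymes and 2 of 13 amino acid transporters (15.4%) held it. Other motifs were frequent too. The antioxidant element TGACNNNGC stood in 6 of 13 transporters (46.2%, against 16.9% of tested genes with a window). The E-box CACGTG stood in 4 of 13 synthetases (30.8%, against 12.4%). Tested genes without a window in the table were not searched. A match describes letters only and is not evidence of binding. The stretches from base -250 to base -21 are shown for 3 genes that rose and hold the element, with the matches in capitals. They are Chac1 (chr2:119350992-119351221, plus strand, match at -193), Slc7a11 (chr3:50443634-50443863, minus strand, matches at -66 and -47) and Gars (chr6:55037751-55037980, plus strand, match at -30). The position is that of the first base of the match, counted back from the start site.
Chac1: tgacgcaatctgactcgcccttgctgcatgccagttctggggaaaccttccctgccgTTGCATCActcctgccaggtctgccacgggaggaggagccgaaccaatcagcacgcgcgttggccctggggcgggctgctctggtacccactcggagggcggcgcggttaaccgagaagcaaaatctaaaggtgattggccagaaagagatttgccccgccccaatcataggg
Slc7a11: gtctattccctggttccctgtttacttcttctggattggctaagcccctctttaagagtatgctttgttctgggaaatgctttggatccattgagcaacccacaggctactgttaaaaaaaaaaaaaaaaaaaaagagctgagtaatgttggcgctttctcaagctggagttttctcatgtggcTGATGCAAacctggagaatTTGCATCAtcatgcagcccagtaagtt
Gars: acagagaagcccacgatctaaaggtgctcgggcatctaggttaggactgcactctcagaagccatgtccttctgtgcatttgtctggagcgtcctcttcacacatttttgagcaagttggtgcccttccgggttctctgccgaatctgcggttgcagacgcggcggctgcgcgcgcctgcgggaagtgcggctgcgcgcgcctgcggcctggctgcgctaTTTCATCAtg

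Of the 20 cytosolic aminoacyl-tRNA synthetases, which join each amino acid to its tRNA, 17 were called higher and 0 lower (85.0% called; median log2 fold change 0.58). Sars, the seryl-tRNA synthetase, was at 126, 118 and 120 FPKM with (A/R) platelets, against 63.3, 62.0 and 61.6 FPKM with platelets. That 2.00-fold difference was the largest in the list, and the libraries did not overlap. Gars, Lars and Yars, for glycine, leucine and tyrosine, rose by 0.82, 0.82 and 0.71 on the log2 scale, and Eprs, for glutamate and proline and chosen after its value was seen, by 0.95. Of the 17 mitochondrial synthetases, 3 were called higher, 1 lower and 13 were not called. The share called was 23.5%, below the 34.3% of all tested genes. The 1 called lower was not called without (A/R) platelet replicate 2 or 3 or platelet replicate 1 or 3.

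Among 16 tested amino acid transporters, 9 were called higher and 3 lower (75.0% called, against 34.3% of all tested genes). Slc7a11, the cystine importer, was at 11.1, 11.8 and 11.1 FPKM with (A/R) platelets, against 4.66, 4.64 and 4.64 FPKM with platelets. Within each treatment the values were almost equal, and the fold was 2.50. Slc7a1, which carries cationic amino acids, and Slc1a4, which carries small neutral ones, rose by 0.94 and 0.85 on the log2 scale. The 2 chains of a large neutral amino acid exchanger, Slc7a5 and Slc3a2, rose by 0.86 and 0.76 and were chosen after their values were seen.

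Enzymes of serine and one-carbon metabolism had 9 of 13 tested members higher and 2 lower (84.6% called, against 34.3% of all tested genes). The mitochondrial folate enzymes Aldh1l2 and Mthfd2 rose 2.61-fold and 2.33-fold, and Psph, the last step of serine synthesis, 1.75-fold. Mthfd2 was at 115, 109 and 113 FPKM with (A/R) platelets, against 52.8, 48.0 and 47.5 FPKM with platelets. Phgdh, the first step of serine synthesis and chosen after its value was seen, rose by 0.43 on the log2 scale. Tyms, the thymidylate synthase and chosen after its value was seen, fell by 0.50. Of 14 enzymes of asparagine, proline and glutamate metabolism, 7 rose and 2 fell (1 fell without (A/R) platelet replicate 1 or 2 or platelet replicate 2 or 3). In all, 64.3% of them were called. Gpt2, a mitochondrial alanine transaminase, rose 2.26-fold, Aldh18a1, which starts proline synthesis, 2.05-fold, and Asns, the asparagine synthetase, 1.54-fold.

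**Figure D3:**
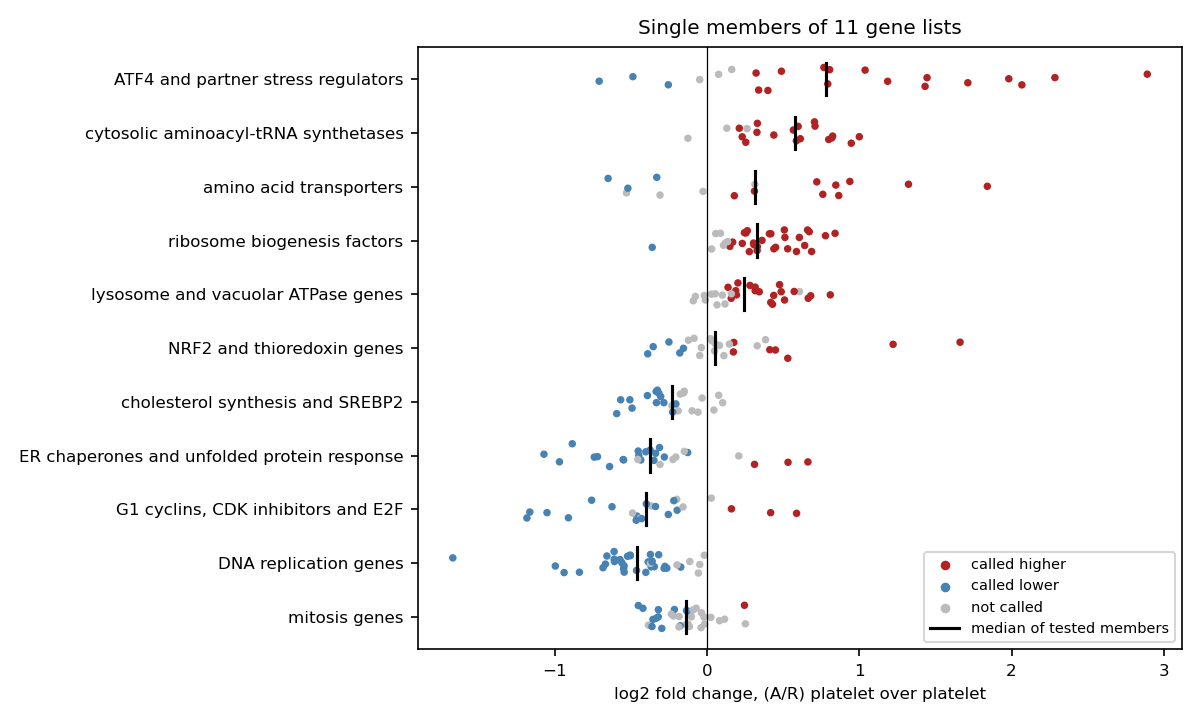
Fitted log2 fold change, (A/R) platelet over platelet, of every tested member of 11 gene lists; each point is 1 gene, coloured by its call, and the black bar is the list's median. The median is 0.78 for the ATF4 list and 0.58 for the cytosolic tRNA synthetases, and it is -0.37 for the ER chaperones and -0.46 for the DNA replication genes.

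Hmox1, the heme oxygenase that breaks down heme, was at 251, 232 and 238 FPKM with (A/R) platelets, against 82.2, 73.9 and 77.4 FPKM with platelets (log2 fold change 1.66 ± 0.06, SE; adjusted p = 4.66e-07). Sqstm1, a receptor for selective autophagy, was at 402, 395 and 392 FPKM with (A/R) platelets, against 179, 167 and 177 FPKM with platelets. Both genes stood clear of the platelet libraries, at 3.17-fold and 2.33-fold. Over the whole list of 25 targets and regulators of NRF2 and of thioredoxin genes, however, 7 were called higher and 5 lower, beside 17.1% of all tested genes in each direction, and the median log2 fold change was 0.05. Nqo1, a widely used NRF2 target chosen after its value was seen, was at 139 to 150 FPKM with (A/R) platelets and 150 to 157 FPKM with platelets, a log2 difference of -0.05 ± 0.04 (SE; adjusted p = 0.432). The NRF2 gene Nfe2l2 and its inhibitor Keap1, also chosen after their values were seen, had log2 fold changes of 0.18 and -0.39; without platelet replicate 1 that of Nfe2l2 was 0.14 and not called. Leaving out any 1 of the 6 treated libraries brought the number of members called lower to 1 or 2. Of 19 tested iron and heme genes, 26.3% were called, below the 34.3% of all tested genes. Among them, Cpox, a step of heme synthesis, rose by 0.58 and Hmox2, the constitutive heme oxygenase, fell by 0.29.

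Of 27 tested chaperones and other genes of the unfolded protein response, 18 were called lower and 3 higher. The share called was 77.8%, against 34.3% of all tested genes, and the median log2 fold change was -0.37. Hspa5, the major ER chaperone known as BiP, was at 231, 236 and 235 FPKM with (A/R) platelets, against 336, 308 and 331 FPKM with platelets. Its fall of 0.44 on the log2 scale was small but larger than the spread of the libraries (SE 0.04; adjusted p = 7.80e-05). Calr, the calcium-binding chaperone calreticulin, fell by 0.55, and Hsp90b1, the ER form of HSP90, by 0.45. Larger falls were those of Dnajc3, a co-chaperone that also inhibits eIF2 kinases, by 1.07, and of Syvn1, a ubiquitin ligase of ER-associated degradation, by 0.89. Chosen after their values were seen, the transcription factor Xbp1 fell by 0.97, and the ER proteins Sdf2l1 and Manf fell by 0.74 and 0.72. The 3 members that rose were the sensors Atf6 (0.66) and Ern1, which encodes IRE1 (0.53), and Derl1, a gene of ER-associated degradation (0.31), all chosen after their values were seen.

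The ER stress element is a CCAAT box followed at a fixed distance by CCACG and was searched on both strands. It stood in 8 of 22 windows of the ER list (36.4%), against 0.147% of the tested genes with a window. Since known targets are among the members, this share describes the choice of list and is not a result of this comparison. The stretches from base -250 to base -21 of Dnajc3 (chr14:118937682-118937911, plus strand, match at -105) and Syvn1 (chr19:6046326-6046555, plus strand, match at -44) are given as the 2 members with the largest falls among those named by the rule, with the element in capitals.
Dnajc3: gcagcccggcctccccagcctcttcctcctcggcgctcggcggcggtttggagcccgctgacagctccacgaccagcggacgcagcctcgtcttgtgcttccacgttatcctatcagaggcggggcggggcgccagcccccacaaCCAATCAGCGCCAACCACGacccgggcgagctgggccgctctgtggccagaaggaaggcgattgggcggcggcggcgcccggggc
Syvn1: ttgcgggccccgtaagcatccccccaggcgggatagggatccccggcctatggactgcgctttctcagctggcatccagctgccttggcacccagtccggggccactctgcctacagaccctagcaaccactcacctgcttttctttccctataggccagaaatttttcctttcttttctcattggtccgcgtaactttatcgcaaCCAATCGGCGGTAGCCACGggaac

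Of 18 mitochondrial chaperones and proteases, 10 were called higher and 0 lower (55.6% called, against 34.3% of all tested genes). Lonp1, a protease of the mitochondrial matrix, was at 137, 138 and 132 FPKM with (A/R) platelets, against 72.5, 73.0 and 71.7 FPKM with platelets, a 1.92-fold rise. Hspa9, the mitochondrial HSP70, was at 426, 428 and 428 FPKM with (A/R) platelets, against 281, 282 and 278 FPKM with platelets, and rose 1.56-fold. The 3 values of each treatment agreed within a few percent for both genes. In the cytosol, 6 of 19 heat shock genes were called lower and 3 higher (1 higher without platelet replicate 3). In all, 47.4% of these genes were called. Hspa1b, an inducible HSP70, fell by 1.39 and Bag3, its co-chaperone, by 0.74. Hspa1a, chosen after its value was seen, is a near-identical copy of Hspa1b at 0.0742 to 0.438 FPKM with (A/R) platelets, against 0.891 to 1.56 FPKM with platelets, so the division of reads between the 2 genes is uncertain. Its log2 fold change of -2.58 was not called without (A/R) platelet replicate 1 (-2.23) or 3 (-2.18) or platelet replicate 2 (-2.53) or 3 (-2.40).

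Of 34 ribosome biogenesis factors, 27 were called higher and 1 lower (82.4% called), with a median log2 fold change of 0.33. Ppan and Nop14, which process ribosomal RNA precursors, rose by 0.84 and 0.78, and the nucleolar protein nucleolin, encoded by Ncl, was at 195, 199 and 203 FPKM with (A/R) platelets, against 151, 150 and 148 FPKM with platelets. Of 44 cytosolic ribosomal proteins 11 were called higher and 0 lower, with a median of 0.15. In all, 25.0% were called, against 34.3% of all tested genes called in either direction and 17.1% called higher. The number of these proteins called higher was 5 without (A/R) platelet replicate 1, 6 without (A/R) platelet replicate 3, 7 without platelet replicate 2 and 5 without platelet replicate 3. Among 31 initiation factors and their regulators 14 rose and 4 fell (2 fell without (A/R) platelet replicate 3 or platelet replicate 2). In all, 58.1% of them were called. Eif5, which acts in start codon selection, rose 2.07-fold, and Eif4ebp1, a repressor of cap-dependent initiation, 1.82-fold. Myc, the growth regulator, was at 38.5, 33.1 and 31.2 FPKM with (A/R) platelets, against 22.4, 21.8 and 22.5 FPKM with platelets, a rise of 0.66, and Mxd3, which can oppose Myc, fell by 0.88.

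Of 30 tested genes of the lysosome, the vacuolar ATPase and their regulators, 19 were called higher and 0 lower. The share called was 63.3%, against 34.3% of all tested genes, and the median log2 fold change was 0.24. Atp6v1g1 and Atp6v1c1, subunits of the proton pump, rose by 0.68 and 0.51, Hexa, a lysosomal hexosaminidase, by 0.57 and Rragc, a GTPase that recruits mTORC1 to lysosomes, by 0.49. The sialidase Neu1 (0.81) and the lysosomal cation channel Mcoln1 (0.66) were chosen after their values were seen. Among mTORC1 regulators, called changes included the activator Rheb (0.60), the inhibitor Deptor (-1.23) and the arginine sensor homologue Castor2 (-1.55).

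Of 24 tested genes of cholesterol synthesis and its control, 13 were called lower and 0 higher (54.2% called), with a median of -0.23. Stard4, a sterol carrier, fell by 0.57 and Insig1, a sterol-regulated anchor protein, by 0.33. In fatty acid synthesis, 5 of 18 genes fell and 1 rose (33.3% called, near the 34.3% of all tested genes; 2 rose without (A/R) platelet replicate 1). Elovl6, an elongase, fell by 0.88 and Srebf1, the lipogenic transcription factor, by 0.61, and Fads3, of the fatty acid desaturase family, rose by 0.86. The genes of fatty acid oxidation were also near that share, with 36.8% called. Among them, Cpt1a, which admits fatty acids to mitochondria, fell by 0.89 and Angptl4, an inhibitor of lipoprotein lipase, by 1.53, whereas Acot2 was among the largest rises.

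Sugar metabolism showed no common direction, with 6 of 24 glycolysis and hypoxia genes higher and 6 lower. Ndrg1, induced by hypoxia and other stress, was at 47.6, 44.5 and 45.1 FPKM with (A/R) platelets, against 14.7, 14.8 and 13.9 FPKM with platelets, a 3.25-fold rise. Vegfa, the angiogenic growth factor, rose 2.32-fold, Hk2, a hexokinase, 2.12-fold and Slc2a1, the glucose transporter GLUT1, 1.75-fold. Ldha, the lactate dehydrogenase subunit, and Bnip3, a mitophagy receptor, both common hypoxia targets chosen after their values were seen, fell by 0.33 and 1.09. Txnip, which restrains glucose uptake and thioredoxin, was at 1.53, 2.01 and 2.23 FPKM with (A/R) platelets, against 9.46, 8.87 and 8.65 FPKM with platelets. Its fall was 2.18 on the log2 scale, and the treatments did not overlap. Of 10 tested glycogen genes, 2 were called higher, 1 lower and 7 were not called (30.0% called, against 34.3% of all tested genes). Among these genes, Gys1, the glycogen synthase, rose by 1.36 beside Stbd1, and Pygb, a glycogen phosphorylase, fell by 0.33.

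The largest fall by the naming rule was that of Mrgprf, an orphan receptor coupled to G proteins, on the plus strand of chromosome 7 (145300828 to 145309557). Its level was 0.639, 0.933 and 0.908 FPKM with (A/R) platelets, against 5.56, 5.39 and 5.78 FPKM with platelets. The 2 treatments did not approach each other, and the log2 fold change was -2.71 ± 0.16 (SE; adjusted p = 5.09e-06). Dusp14, a phosphatase of MAP kinases, was at 0.953, 0.924 and 1.34 FPKM with (A/R) platelets, against 6.11, 6.34 and 5.64 FPKM with platelets. Pml, the scaffold of nuclear bodies, fell by 1.91, to 4.37, 3.80 and 3.83 FPKM with (A/R) platelets, against 15.9, 15.8 and 14.7 FPKM with platelets. Slco4a1, an organic anion transporter, fell by 1.60 and Gas1, a membrane protein of growth arrest and hedgehog signalling, by 1.59. The other named falls were Tmem204 (-1.74), the myosin phosphatase subunit Ppp1r12b (-1.54), the phospholipid flippase subunit Atp8b2 (-1.48), the schlafen gene Slfn9 (-1.47), the Wnt inhibitor Apcdd1 (-1.36) and the adaptor Grap (-1.34), with Angptl4, Hspa1b and Cdc6 described with their lists.

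Of 37 tested DNA replication genes, 31 were called lower and 0 higher, with a median log2 fold change of -0.46. The share called was 83.8%, against 34.3% of all tested genes. Cdc6, which loads the replicative helicase at origins, was at 5.06, 5.45 and 5.57 FPKM with (A/R) platelets, against 18.4, 16.8 and 17.4 FPKM with platelets. The separation was wide and the fall was 1.67 ± 0.07 (SE; adjusted p = 7.63e-07). Rrm2, a ribonucleotide reductase subunit, was at 67.8, 66.2 and 63.4 FPKM with (A/R) platelets, against 123, 120 and 119 FPKM with platelets. Tk1, a thymidine kinase, fell by 1.00 and Mcm6, a helicase subunit, by 0.66, and Mcm4 and Pcna, the sliding clamp, both chosen after their values were seen, by 0.67 and 0.55. Fen1, a flap nuclease also chosen after its values were seen, was at 15.8, 28.8 and 29.6 FPKM with (A/R) platelets, against 49.1, 48.3 and 48.8 FPKM with platelets, so that (A/R) platelet replicate 1 lay below replicates 2 and 3.

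Of 23 genes that govern entry into S phase, 14 were called lower and 3 higher (73.9% called). The cyclins E, which drive that entry, fell by 1.18 (Ccne2) and by 1.17 (Ccne1, chosen after its value was seen), and E2f7 fell by 1.05 and Ccnd3 by 0.76. Cdkn1a, the CDK inhibitor p21, fell too, to 46.2, 42.1 and 44.3 FPKM with (A/R) platelets, against 70.1, 69.7 and 70.0 FPKM with platelets, a decrease of 0.62 on the log2 scale. Of 26 DNA repair genes, 12 were called lower and 0 higher (46.2% called). Among those that fell were Ung, which removes uracil from DNA, by 1.36, Clspn, a checkpoint adaptor, by 1.16 and Brca1, chosen after its value was seen, by 0.61. Mitosis genes changed less, with 12 of 32 lower and 1 higher and a median of -0.14. In all, 40.6% were called, against 34.3% of all tested genes called in either direction and 17.1% called lower. Mki67, the proliferation marker Ki-67, fell by 0.45 and Plk1, a mitotic kinase, by 0.36. The E2F element TTTNNCGC stood in 14 of 30 windows of replication genes (46.7%), against 10.8% of the tested genes with a window. That share describes which genes the list holds and is not a result of this comparison.

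Of 23 p53 targets, 5 were called higher and 6 lower, beside 17.1% of all tested genes in each direction, and the median log2 fold change was -0.04. Gadd45a and the polo-like kinases Plk2 and Plk3 rose (Plk2 and Plk3 by 0.72 and 0.95), whereas Cdkn1a fell, as did Phlda3, an inhibitor of AKT chosen after its value was seen, by 0.84. Bbc3, the death effector PUMA, rose by 0.50, and Mdm2, the ligase of p53, was at 17.7 to 18.8 FPKM with (A/R) platelets and 17.5 to 17.9 FPKM with platelets (adjusted p = 0.246), both chosen after their values were seen. In the BCL2 family, Bid rose by 0.57, and the survival genes Bcl2 and Mcl1 fell by 0.55 and 0.25.

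**Figure D4:**
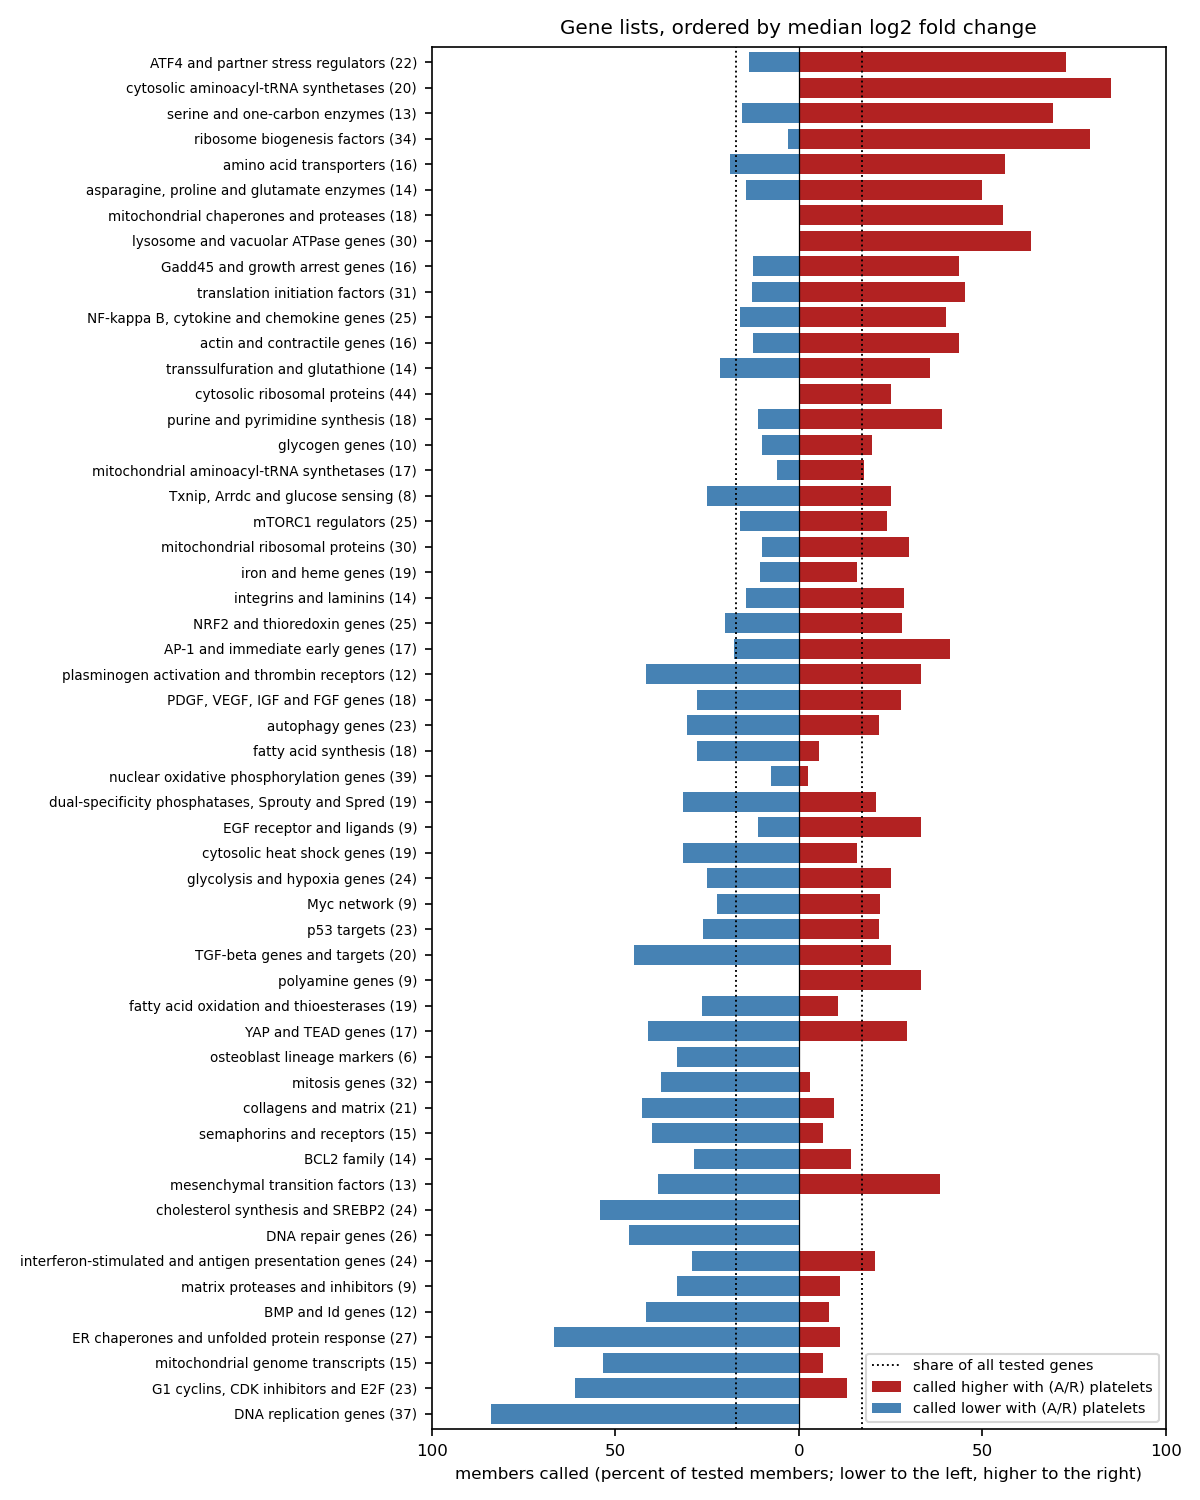
Share of tested members called higher (red, to the right) or lower (blue, to the left) with (A/R) platelets for the gene lists with at least 5 tested members, ordered by median log2 fold change; the number of tested members stands in brackets. Dotted lines mark 17.1%, the share of all tested genes called in each direction. The cytosolic tRNA synthetases and ribosome biogenesis factors reach furthest right and the DNA replication genes furthest left.

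Of 25 tested genes of NF-kappa B, cytokines and chemokines, 10 rose and 4 fell (56.0% called, against 34.3% of all tested genes). Ptgs2, the inducible cyclooxygenase, was at 112, 120 and 118 FPKM with (A/R) platelets, against 42.8, 42.2 and 44.6 FPKM with platelets. Its fold was 2.78, yet Ptges, a prostaglandin E synthase chosen after its value was seen, fell by 1.04. Nfkbia, the inhibitor of NF-kappa B, was at 11.8, 10.7 and 12.9 FPKM with (A/R) platelets, against 24.2, 22.8 and 25.0 FPKM with platelets, a fall of 0.98. The subunit Relb rose by 0.71 and the inhibitor Nfkbib by 0.77. The chemokine Ccl2 rose by 0.19, but its call was lost with upper-quartile scaling, on log2 FPKM, and without (A/R) platelet replicate 1 (0.20) or 3 (0.18) or platelet replicate 2 (0.17) or 3 (0.20). The cytokine Lif (0.83) and the chemokine Cxcl5 (-0.85) were chosen after their values were seen. Il6 was not tested, since no library held more than 4 counts, and Cd274, which encodes PD-L1, had 1.11 to 1.68 FPKM with (A/R) platelets, against 0.952 to 1.16 FPKM with platelets (adjusted p = 0.172). Of 24 interferon-stimulated and antigen presentation genes, 7 fell and 5 rose (3 rose without (A/R) platelet replicate 1 or 3, platelet replicate 1 or 3 or untreated replicate 1). Among them, Pml, the RNA sensor Ddx58 (-0.76) and the antiviral gene Ifit2 (-0.83) were lower, and B2m, the light chain of MHC class I, was higher by 0.23.

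In the list of TGF-beta genes and targets, 9 of 20 fell and 5 rose (70.0% called, against 34.3% of all tested genes). Tgfbr2, a receptor chain, fell by 0.75, the matrix-bound Ltbp2 by 0.69 and Tgfb1 itself by 0.42, and Tgfb3 and the inhibitor Smad6, chosen after their values were seen, by 1.00 and 1.02, while Smurf1, a ligase that degrades receptors and SMADs, rose by 0.76. The call of Tgfb3 was lost without platelet replicate 1 (-0.94) or platelet replicate 2 (-0.93). The BMP targets Id1 and Id2 fell by 0.73 and 1.05, Id3, chosen after its value was seen, by 0.51, and Grem1, a secreted BMP antagonist, rose to 144, 152 and 152 FPKM with (A/R) platelets, against 90.2, 92.1 and 92.5 FPKM with platelets. Both PDGF receptors, Pdgfra and Pdgfrb, fell, by 0.79 and 0.78. Of the ligands of the EGF receptor, Ereg fell by 1.10 and Hbegf rose by 0.24. The immediate early genes had 7 of 17 higher and 3 lower (58.8% called), with Phlda1 (0.92), Ier2 (0.87) and Srf (0.71) among the rises. Of the feedback inhibitors of ERK signalling, Dusp1 fell by 0.73 and Spred1 by 0.51, and Spry4, chosen after its value was seen, rose by 0.80.

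Collagen and matrix genes had 9 of 21 called lower and 2 higher (52.4% called, against 34.3% of all tested genes). Col3a1 was at 64.3, 69.6 and 65.8 FPKM with (A/R) platelets, against 115, 122 and 116 FPKM with platelets, a fall of 0.78, and Fn1, fibronectin, rose by 0.67. Timp3, an inhibitor of metalloproteinases, was at 5.04, 5.61 and 5.39 FPKM with (A/R) platelets, against 1.66, 1.68 and 1.53 FPKM with platelets, a 3.38-fold rise, while Timp1 fell by 0.45. Plaur, the urokinase receptor, rose by 0.96, and Plau, urokinase, fell by 0.58. F3, tissue factor, which starts coagulation, was at 6.74, 5.83 and 6.82 FPKM with (A/R) platelets, against 3.60, 2.57 and 2.69 FPKM with platelets, and Thbd, thrombomodulin, which restrains it, at 6.48, 6.57 and 5.67 FPKM with (A/R) platelets, against 2.92, 2.61 and 2.44 FPKM with platelets. Both rose, 2.24-fold and 2.41-fold. Of the mesenchymal transition factors, Twist1 fell by 0.97 and Snai1 by 0.68, and Snai2, chosen after its value was seen, rose by 0.94.

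Transcripts of the mitochondrial genome did not move as 1 unit. Of 15 tested, 8 were called lower and 1 higher, with a median log2 fold change of -0.38. The share called was 60.0%, against 34.3% of all tested genes. The ribosomal RNA mt-Rnr2 was at 677, 783 and 787 FPKM with (A/R) platelets, against 1720, 1700 and 1629 FPKM with platelets, a 2.19-fold difference. The protein gene mt-Cytb was at 1856, 1888 and 1940 FPKM with (A/R) platelets, against 2983, 2860 and 2835 FPKM with platelets. In contrast, mt-Co1, a cytochrome c oxidase subunit, was at 5792, 6367 and 5985 FPKM with (A/R) platelets, against 4539, 4755 and 4525 FPKM with platelets, and rose by 0.43. The share of all counts in the mitochondrial genome was 2.72% to 3.27% with (A/R) platelets and 3.05% to 3.49% with platelets. Of 39 nuclear genes of oxidative phosphorylation, 35 were not called.

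Plain platelets changed few genes, and 31 were called between platelet and untreated libraries. Since the platelet libraries enter both comparisons, values are set side by side here and no overlap is read as a result. The 31 genes were picked by their difference between platelet and untreated libraries, so that difference follows from the choice. Among the 25 genes that were higher with platelets than without, 14 were called higher still with (A/R) platelets, 8 were called lower and 3 were not called. Of all tested genes, 17.1% were called in each direction. Plaur had 86.3, 85.5 and 84.5 FPKM with (A/R) platelets and 49.2, 41.3 and 44.8 FPKM with platelets, beside a mean of 30.5 FPKM in untreated cells. Fhl2, a LIM domain coactivator, had 40.9, 38.9 and 42.2 FPKM with (A/R) platelets and 23.8, 22.6 and 20.6 FPKM with platelets, beside 13.6 FPKM in untreated cells. These 2 genes thus had 3 separate levels, as did Slc25a33, a mitochondrial nucleotide carrier (log2 fold change 1.49), Pvr, an adhesion receptor (0.79), Ankrd1 (0.57), the AP-1 member Fosl1 (0.50) and Hmga2, an architectural chromatin protein (0.33). The rise of Dusp5 by 0.30 (adjusted p = 0.0399) was not called in any of the 6 fits that each left out 1 treated library (0.28 to 0.33).

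Ccn2, connective tissue growth factor, and Sema7a, a membrane-anchored semaphorin, were higher with plain platelets than with (A/R) platelets. They were also higher than without treatment, by the choice of genes. Ccn2 was at 20.7, 20.9 and 20.1 FPKM with (A/R) platelets and 45.0, 43.4 and 43.3 FPKM with platelets, beside a mean of 28.4 FPKM in untreated cells. Sema7a, on the plus strand of chromosome 9 (57940112 to 57962865), was at 5.55, 4.78 and 4.73 FPKM with (A/R) platelets and 11.8, 11.1 and 11.2 FPKM with platelets, beside 6.36 FPKM in untreated cells. The falls against platelets were 1.05 and 1.14 on the log2 scale, and both genes lay below the untreated mean. Nedd8, a ubiquitin-like modifier, Jun and Dusp6, an ERK phosphatase, also fell, by 0.76, 0.33 and 0.35, as did Tspan9, Ptpn22 and Wtap, by 0.35, 0.53 and 0.27. Of the 6 genes lower with platelets than without, 4 fell further (Mgat3, Denn2b, Afap1l2 and Parp9, by 0.95, 0.78, 0.56 and 0.41) and 2 rose. Serpinb9, an inhibitor of granzyme B, was at 25.2, 26.8 and 27.3 FPKM with (A/R) platelets and 12.1, 11.5 and 11.8 FPKM with platelets, beside 16.6 FPKM in untreated cells, and Lemd2, a nuclear envelope protein, rose by 0.81.

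**Figure D5:**
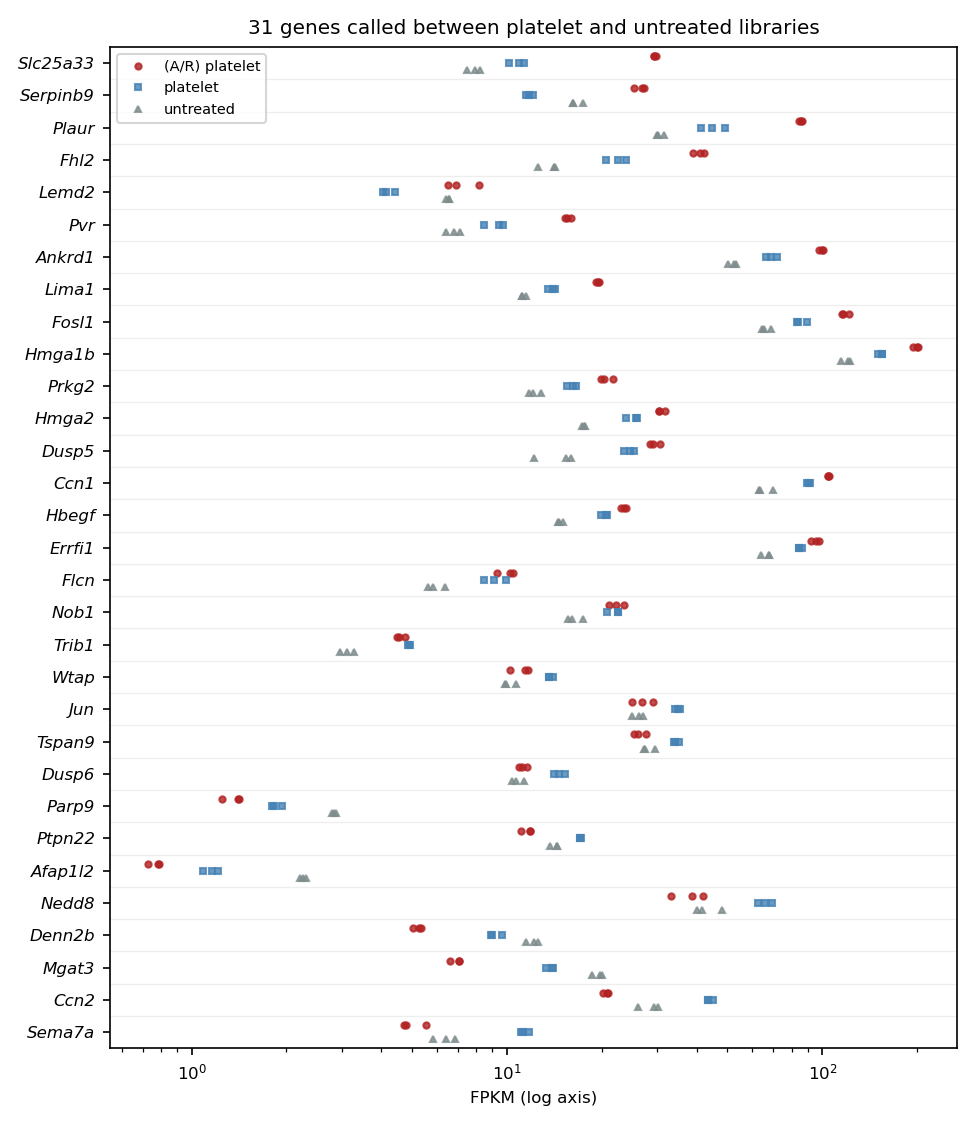
FPKM on a log axis of the 31 genes called between platelet and untreated libraries, ordered by their change with (A/R) platelets; each point is 1 library of the (A/R) platelet, platelet or untreated group. From Slc25a33 down to Errfi1 the (A/R) platelet libraries lie to the right of the platelet libraries, and from Wtap down to Sema7a to the left.

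Little platelet RNA was found in any library. Of 26 platelet transcripts, 2 passed the filter and 5 had 0 counts in all 9 libraries, among them Tubb1 and Gp6. Their summed level was 166 ± 7.45 CPM (counts scaled by library total; SD, n = 3) with (A/R) platelets and 358 ± 6.90 CPM with platelets, beside 374 ± 8.97 CPM in untreated cells, which received no platelets (exact two-sided permutation test between the treatments, p = 0.1, the smallest that 3 against 3 libraries allow). The sum was made up mostly of Cavin2, a caveolar protein that is not confined to platelets, at 45.3, 49.6 and 47.8 FPKM with (A/R) platelets, against 104, 104 and 101 FPKM with platelets. Without Cavin2 and Ppbp the difference was -0.843 CPM (exact permutation p = 0.2). Ppbp fell by 0.71 (adjusted p = 0.0391), and its call was lost in 7 of the 9 fits without 1 library (-0.74 to -0.54); it held without (A/R) platelet replicate 3 or untreated replicate 3. Pf4 had 17, 12 and 11 counts with (A/R) platelets, against 6, 3 and 2 counts with platelets, beside 12, 15 and 0 in untreated cells.

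Of 20 leukocyte markers 4 were tested and the pan-leukocyte gene Ptprc had at most 12 counts. Their sum was 2105 ± 76.1 CPM (SD, n = 3) with (A/R) platelets and 2760 ± 106 CPM with platelets, beside 2905 ± 72.5 CPM in untreated cells. It consisted mostly of Csf1r, the receptor for the growth factor CSF1, at 312, 330 and 308 FPKM with (A/R) platelets, against 400, 430 and 403 FPKM with platelets. Csf1r and Cd14, a lipopolysaccharide receptor, fell by 0.34 and 0.89, and untreated cells, which received no platelets, had means of 437 and 45.9 FPKM. The sums of the 9 erythroid and of the 14 endothelial and epithelial markers were at most 2.36 and 12.2 CPM in the 6 treated libraries. The endothelial gene Cdh5 fell by 0.89. The epithelial genes Epcam, Krt8 and Krt19 had 0 counts in (A/R) platelet replicate 1. They had 103, 198 and 165 counts in replicate 2 and 43, 65 and 75 in replicate 3. All platelet and untreated libraries held some counts of them, and the cause was not tested. Whether fewer cells of a type or less RNA per cell lies behind such differences cannot be told apart in bulk samples.

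Genes seen in 1 treatment alone were few and low. With at least 1 count in each library of one treatment and 0 in all 3 of the other, 83 genes were found with (A/R) platelets and 70 with platelets. At 12 counts, about 3 fragments and the limit that a count of 0 allows per library, the numbers were 3 and 4. A4galt, a glycosyltransferase chosen after its values were seen, had 19, 16 and 14 counts with (A/R) platelets and 0 in each platelet and untreated library.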

How the data were processed

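RNA sequencing of K7M2 cells gave the authors' deposited table of 55401 genes with an FPKM value and an estimated count per gene in each of 9 libraries, 3 per group. The deposited counts are not all whole and run at about 4 per sequenced fragment, so they were rounded and an alternative divided them by 4. The submitters' processing notes give GRCm38 (mm10) as the build; no source used here names the aligner, the counter or the handling of strand. Tests ran on the 11826 genes that reached 1 FPKM in 3 or more libraries.

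All 9 libraries were fitted together by group in edgeR 4.0.16 (R 4.3.3; TMM scaling, quasi-likelihood test, Benjamini-Hochberg adjustment over all tested genes), after the script was tested on simulated data. limma 3.58.1 on log2(FPKM + 1) and DESeq2 1.42.0 served as alternatives, with other scalings, filters and left-out libraries. Named genes were the 15 largest called rises and falls with a mean of at least 5 FPKM in the higher group and no overlap, without predicted, clone-named or pseudogenes, up to 4 members of each of 58 lists by p, and a fixed set. The members, lists and rule were chosen with earlier results of these data known. Motifs were searched in RefSeq windows. Where a count is 0, up to 12 counts (3 fragments) are allowed per library, for counting error only. Some genes are not reported here.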

Additional observations from a re-analysis of the deposited data

How the results depend on the processing

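The number of called genes, 4052, was 3355 to 4080 when 1 library was left out, with 1668 to 2027 higher and 1687 to 2053 lower, and 2834 of the 4052 (69.9%) were called in all 9 such fits. It was 4386 with DESeq2, 4031 with its size factors in edgeR, 4067 with upper-quartile scaling, 4029 with limma on log2(FPKM + 1), 4009 with 0.1 in place of 1, 3969 with the 6 treated libraries alone, 4082 with counts divided by 4, 3570 of 25323 genes with no filter and 3084 of 7481 genes at an FPKM of at least 5. No called gene was called in the opposite direction in any of these. Genes called at least 2-fold higher, 138, were 134 to 152 with 1 library left out, 86 at an FPKM of at least 5 (fewer genes tested) and 69 with limma on log2(FPKM + 1), whose pseudocount shrinks the change of low genes. Those at least 2-fold lower, 202, were 192 to 220, 78 and 73. Genes seen in 1 treatment alone numbered 3 with (A/R) platelets and 4 with platelets at 12 counts. The difference in summed platelet transcripts was -196 to -188 CPM with 1 library left out and -0.843 CPM without Cavin2 and Ppbp, an alternative chosen after seeing the data. Of single genes that were not called, Cd68 and Hba-a1 changed sign with 1 library left out, with log2 fold changes of -0.0673 to 0.331 and -0.103 to 0.28, and were lowest without (A/R) platelet replicate 2; the cause was not tested. Same-numbered libraries did not deviate together (correlations of 0.00452, 0.0264 and -0.0223), so the numbers were not taken to pair them; a fit with the replicate block made 3725 calls.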
